A study of Mus musculus with 12 samples.

Results

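The genes followed here were 6 members of the RasGAP family, namely *Rasa1*, *Rasa2*, *Rasa3*, *Nf1*, *Rasal2* and *Dab2ip*, and the Spred genes *Spred1* and *Spred2*. They were chosen by gene symbol, as relatives of the targeted gene *Rasa1* and as partners of Nf1, and are 8 of the 18926 genes in the tables. All 8 were found in each of the 12 libraries and all 8 were among the 18053 genes tested. The question was whether the relatives of *Rasa1* were higher where *Rasa1* was low. RNA of S1 tumorspheres was freed of rRNA and sequenced, in 3 libraries each of 4 groups. S1 is a mouse gastric cancer (GC) cell line of the ChetPS model, in which *Smad4* F/F and *Trp53* F/F are combined with *Cdh1* F/+, so all groups share these alleles. In all groups the cells carried Cas9 from a PiggyBac transposon and a lentiviral guide RNA. The genotypes were control (for which a non-targeting guide and the intact plasmid backbone are both given), *Rasa1* KO, *Nf2* KO, and *Rasa1* KO with *Nf2* KO, here called double-KO. Tumorspheres grew on low attachment plates in medium with epidermal growth factor, a ligand that feeds into Ras, although the labels name the cells as monolayer. By the lentivirus methods of the study, cells that survived selection were pooled. Which cultures gave the 3 libraries of a group was not given in the sources used here.

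Ras proteins are switches at the membrane that signal while they hold GTP and stop once the GTP is hydrolysed. A RasGAP is a GTPase-activating protein that speeds this hydrolysis and so turns Ras off, whereas exchange factors such as Sos1 load new GTP. *Rasa1* encodes p120 RasGAP, which is brought to activated receptors by its SH2 domains. *Nf1* encodes neurofibromin, the RasGAP lost in neurofibromatosis type 1. Spred1 and Spred2 are adaptors that bind neurofibromin and bring it to the membrane. *Nf2*, despite its name, encodes merlin, which is no RasGAP but an activator of the Hippo kinases that hold YAP and TAZ off the TEAD factors.

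The targeted genes were examined first, since they check the labels. Levels are given as CPM, counts scaled to library size, which state the share of a library's reads that a gene took, after TMM scaling. *Nf2* was between 55.4 and 61.0 CPM in control and between 13.2 and 14.3 CPM in *Nf2*-KO. In the labelled *Rasa1*-KO libraries, *Nf2* was between 11.6 and 12.1 CPM, and in those labelled double-KO it was between 56.4 and 62.6 CPM. *Nf2* therefore went against both labels. The names of the deposited tables also give the labelled *Rasa1*-KO libraries as double-KO and those labelled double-KO as *Rasa1*-KO. These groups are called the labelled *Rasa1*-KO libraries and labelled double-KO throughout. With both labels exchanged, each comparison of one of them with control or with *Nf2*-KO becomes that of the other, and the values below can be read in that way. *Rasa1* itself was low in both groups and does not tell them apart.

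One control library also stood apart from its group. Its title carries no number, and it is called the unnumbered control library. It had 95340850 counts, against 69091487 in control 1 and 43818139 in control 2, and 7S RNAs took 11.1% of its counts, against 9.15% and 7.17%. Over all libraries the totals were between 43818139 and 96674463 counts, and no count of a member was under 1202, so counting error was small beside the spread between libraries. *Nf1*, *Rasal2* and *Spred2* were at 35.2%, 51.1% and 23.9% of the mean of the other controls in this library, *Rasa1* was at 78.8%, and *Rasa2*, *Rasa3*, *Dab2ip* and *Spred1* were between 92.6% and 104% of it. Results that rest on this library are given with and without it. The part of depth or of 7S RNA in these differences was not tested. The study calls the points of its sample plot technical replicates, so the p-values may measure only technical spread between libraries. Epithelial markers (*Epcam*, *Krt8*, *Krt18*, *Krt19* and *Cldn4*) summed to between 2015 and 4128 FPKM, a unit that divides by transcript length and by depth, over all libraries. *Epcam* was nonetheless lower in all 3 comparisons with control (log2 fold changes of -1.55 in the labelled *Rasa1*-KO libraries, -2.63 in *Nf2*-KO and -0.84 in the libraries labelled double-KO, adjusted p in edgeR of 5.6e-05, 1.0e-06 and 0.017). Other markers of the list moved the other way: *Krt18*, *Krt19* and *Krt8* were higher in the labelled *Rasa1*-KO libraries (0.83, 0.70 and 0.64, adjusted p in edgeR of 0.0061, 0.004 and 0.033), and *Krt19* also in those labelled double-KO (0.72, adjusted p = 0.018, edgeR). In bulk RNA, fewer cells of a type and less RNA per cell cannot be told apart.

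The promoters are shown for 2 sets of genes that the results turn on, since only promoter sequence was at hand for the members. The windows are RefSeq sequence of GRCm38.p6, from 250 bases before to 50 after an annotated start, 5′ to 3′ on the gene's strand. Capitals mark GGAATG or CATTCC, the core that TEAD factors bind. *Rasa1* and *Rasa3* are shown because they were the members higher in *Nf2*-KO than in control. The window of *Rasa1* lies at chr13:85289437-85289736 and that of *Rasa3* at chr8:13677538-13677837, both on the minus strand.
*Rasa1*: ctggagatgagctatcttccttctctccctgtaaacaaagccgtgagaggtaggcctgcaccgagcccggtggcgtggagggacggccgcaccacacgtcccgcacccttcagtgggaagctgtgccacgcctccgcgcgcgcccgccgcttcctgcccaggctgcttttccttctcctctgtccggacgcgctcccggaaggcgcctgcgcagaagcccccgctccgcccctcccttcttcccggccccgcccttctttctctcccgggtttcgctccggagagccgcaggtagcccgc
*Rasa3*: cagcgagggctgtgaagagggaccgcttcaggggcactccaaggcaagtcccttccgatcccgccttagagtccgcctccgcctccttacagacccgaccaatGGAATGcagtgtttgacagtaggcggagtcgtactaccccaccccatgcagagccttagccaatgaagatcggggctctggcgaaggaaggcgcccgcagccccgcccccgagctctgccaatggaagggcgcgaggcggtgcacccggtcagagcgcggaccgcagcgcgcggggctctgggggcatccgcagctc
*Nf1*, *Rasal2* and *Spred2* are shown because their levels moved together over the libraries. Their windows lie at chr11:79339642-79339941 (plus strand), chr1:157412546-157412845 (minus strand) and chr11:19924192-19924491 (plus strand).
*Nf1*: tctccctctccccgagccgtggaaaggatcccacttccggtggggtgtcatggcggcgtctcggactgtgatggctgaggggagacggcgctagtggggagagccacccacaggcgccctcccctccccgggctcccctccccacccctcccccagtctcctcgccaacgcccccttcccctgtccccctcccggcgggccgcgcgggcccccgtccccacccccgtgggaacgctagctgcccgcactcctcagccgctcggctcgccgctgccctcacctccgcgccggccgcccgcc
*Rasal2*: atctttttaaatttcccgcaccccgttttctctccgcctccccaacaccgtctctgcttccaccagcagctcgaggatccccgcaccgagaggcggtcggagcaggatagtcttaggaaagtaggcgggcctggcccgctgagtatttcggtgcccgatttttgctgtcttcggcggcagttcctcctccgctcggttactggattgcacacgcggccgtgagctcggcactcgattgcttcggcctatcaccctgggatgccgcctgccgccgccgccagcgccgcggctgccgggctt
*Spred2*: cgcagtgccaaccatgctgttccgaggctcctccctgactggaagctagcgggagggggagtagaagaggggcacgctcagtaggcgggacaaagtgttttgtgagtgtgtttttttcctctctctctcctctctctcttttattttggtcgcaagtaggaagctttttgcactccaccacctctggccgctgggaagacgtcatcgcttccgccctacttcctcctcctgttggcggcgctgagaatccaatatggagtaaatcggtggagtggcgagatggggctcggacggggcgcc
The TEAD letters were found, on either strand, in 1 of the 11 windows of the 8 members, the *Rasa3* window above, and in 14.7% of all 32851 windows of that length. The AP-1 letters TGANTCA were in 0 of the 11 windows and in 7.81% of all windows. The SP letters GGGCGG or CCGCCC were in 9 of the 11 and in 35.7% of all, and the windows without them were that of *Rasal2* and 1 of the 4 of *Dab2ip*. A match is a description of the letters and says nothing of binding, and no overlap between motifs was removed. The GC content was 68.7% in the *Rasa1* window, 66.7% in *Rasa3*, 75.7% in *Nf1*, 63.3% in *Rasal2* and 57.0% in *Spred2*.

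The members are given by their RefSeq spans on GRCm38. *Rasa1* (Entrez identifier 218397) spans 85214699 to 85289486 of chromosome 13, *Rasa2* (114713) lies on chromosome 9 from 96539300 to 96631612, and *Rasa3* (19414) on chromosome 8 from 13567218 to 13677587. *Nf1* (18015) lies on chromosome 11 from 79339590 to 79581609, and *Rasal2* (226525) on chromosome 1 from 157135183 to 157412595. *Dab2ip* (69601) lies on chromosome 2 from 35558446 to 35730994, as does *Spred1* (114715), from 117121071 to 117182279. *Spred2* (114716) lies on chromosome 11 from 19924442 to 20024026. Other annotated genes overlap *Rasa2* (1), *Rasa3* (1), *Nf1* (6), *Rasal2* (5) and *Dab2ip* (1). Of these, only 2810025M15Rik, an lncRNA gene within the span of *Rasal2*, was in the tables, at a mean of 11.4 CPM. Whether counting used the strand was not given in the sources used here, so reads of such genes cannot be told apart from those of the members.

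Between genes, levels were compared as FPKM, which allow for transcript length. *Rasa3* and *Spred1* were in the first or second place of the 8 in every library, with means over the 12 libraries of 25.9 and 22.8 FPKM. *Nf1*, *Dab2ip*, *Rasa1* and *Rasa2* followed with 12.2, 10.4, 10.2 and 9.68 FPKM, and their order changed between libraries. *Spred2* (3.84 FPKM) was in place 6 or 7, and *Rasal2* (2.21 FPKM) was last in every library. Rasa3, the most abundant RasGAP transcript here, belongs to the GAP1 group of RasGAPs and also acts on the related GTPase Rap1. The range from the lowest to the highest library was widest for *Rasa1* (6.13-fold in FPKM) and narrowest for *Spred1* (1.41-fold). With TPM in place of FPKM the order was the same except that *Rasa1* and *Dab2ip* changed places.

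*Rasa1* was lowest in the groups that carry its KO and highest in *Nf2*-KO. In control it was at 60.5 CPM in the unnumbered library, 74.9 in control 1 and 78.5 in control 2. The labelled *Rasa1*-KO libraries had 34.5, 30.4 and 30.8 CPM, and those labelled double-KO had 17.7, 20.6 and 23.3 CPM. *Nf2*-KO had 97.2, 101 and 97.2 CPM. The 4 groups did not overlap, and their order was *Nf2*-KO, control, labelled *Rasa1*-KO and labelled double-KO. The mean was 44.7% of control in the labelled *Rasa1*-KO libraries, a log2 fold change of -1.16 (with a standard error, SE, of 0.13 and an adjusted p = 3.4e-05, edgeR). It was 28.8% of control in those labelled double-KO, a log2 fold change of -1.79 (SE 0.13, adjusted p = 5.5e-05, edgeR). The groups with the KO also differed from each other by -0.63 (labelled double-KO against labelled *Rasa1*-KO, SE 0.13, adjusted p = 0.0032, edgeR). A KO by small insertions or deletions can leave part of an mRNA, so these levels do not measure the protein. In *Nf2*-KO, whose cells have an intact *Rasa1* by their label, *Rasa1* rose by 0.47 on the log2 scale (SE 0.13, adjusted p = 0.011, edgeR), and by 0.36 without the unnumbered control library (adjusted p = 0.011, edgeR). This call was lost when only these groups were fitted and under 2 other alternatives of 22.

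**Figure D1:**
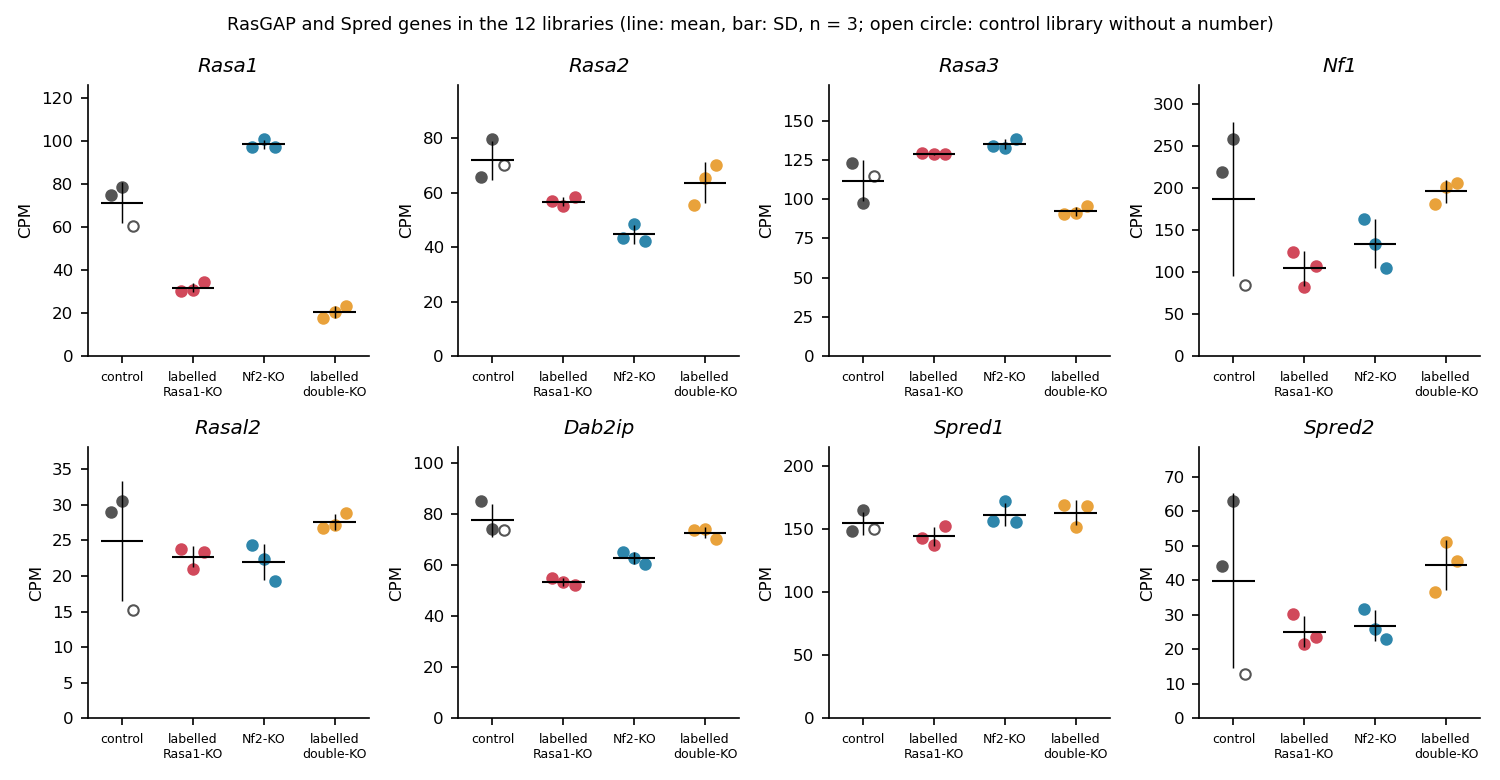
CPM of the 8 members (vertical axes, from 0) in the libraries of the 4 groups (horizontal axes). Points are single libraries, the open circle is the unnumbered control library, lines are means and bars are the SD of 3 libraries. *Rasa1* falls to between 17.7 and 34.5 CPM in the groups labelled *Rasa1*-KO and double-KO, while *Spred1* stays between 137 and 172 CPM in all of them.

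Against this fall of *Rasa1*, no relative passed the test as higher in either group with the *Rasa1* KO. In the labelled *Rasa1*-KO libraries, 0 members were called higher and 3 lower at an adjusted p under 0.05, where 19.7% of all genes were called higher and 22.2% lower. The 3 were *Rasa1*, *Rasa2* and *Dab2ip*, and 5 members had an unadjusted p under 0.05. The median log2 fold change of the 8 members was -0.44, beside -0.08 over all genes tested. In those labelled double-KO, 0 members were called higher and 1, *Rasa1*, lower, where 4.0% of all genes were called higher and 2.46% lower, and 2 members had an unadjusted p under 0.05. The median of the members was -0.02, beside -0.04 over all genes. Both medians of the members include *Rasa1*, the targeted gene itself, and a median of the relatives alone was not computed. In those labelled double-KO, *Rasa3*, *Rasa2* and *Dab2ip* were at 0.826, 0.887 and 0.935 as folds of control. *Nf1*, *Spred1*, *Rasal2* and *Spred2* were at 1.05, 1.05, 1.11 and 1.12 there. DESeq2 also called no relative higher in either comparison. The exception among 22 alternatives was *Rasa3* in the labelled *Rasa1*-KO libraries, described with its values below. Both comparisons use the same control libraries.

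The intervals show what rise these libraries leave room for, and are not adjusted for the number of genes tested. They cover the spread between libraries, which may be only technical. In the labelled *Rasa1*-KO libraries, the upper ends of the 95% intervals of the 7 relatives, as folds of control, were 1.33 for *Rasa3*, 1.26 for *Rasal2*, 1.17 for *Spred2* and 1.07 for *Spred1*. Those of *Rasa2*, *Nf1* and *Dab2ip* were 0.937, 0.915 and 0.786, so they ended below the control level, although *Nf1* was not called (adjusted p = 0.057, edgeR). The interval of *Rasa3* began at 1.00005, just above the control level, although *Rasa3* was not called either (adjusted p = 0.099, edgeR). Without the unnumbered control library it ran from 1.02 to 1.35 (adjusted p = 0.053, edgeR). In those labelled double-KO the upper ends were 2.07 for *Spred2*, 1.71 for *Nf1* and 1.52 for *Rasal2*, and between 0.952 and 1.21 for the other 4. With the unnumbered control library left out, the upper ends for *Spred2*, *Nf1* and *Rasal2* were 1.12, 1.08 and 1.09 there, and 0.629, 0.574 and 0.897 in the labelled *Rasa1*-KO libraries, so that all 3 then ended below the control level in the latter.

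**Figure D2:**
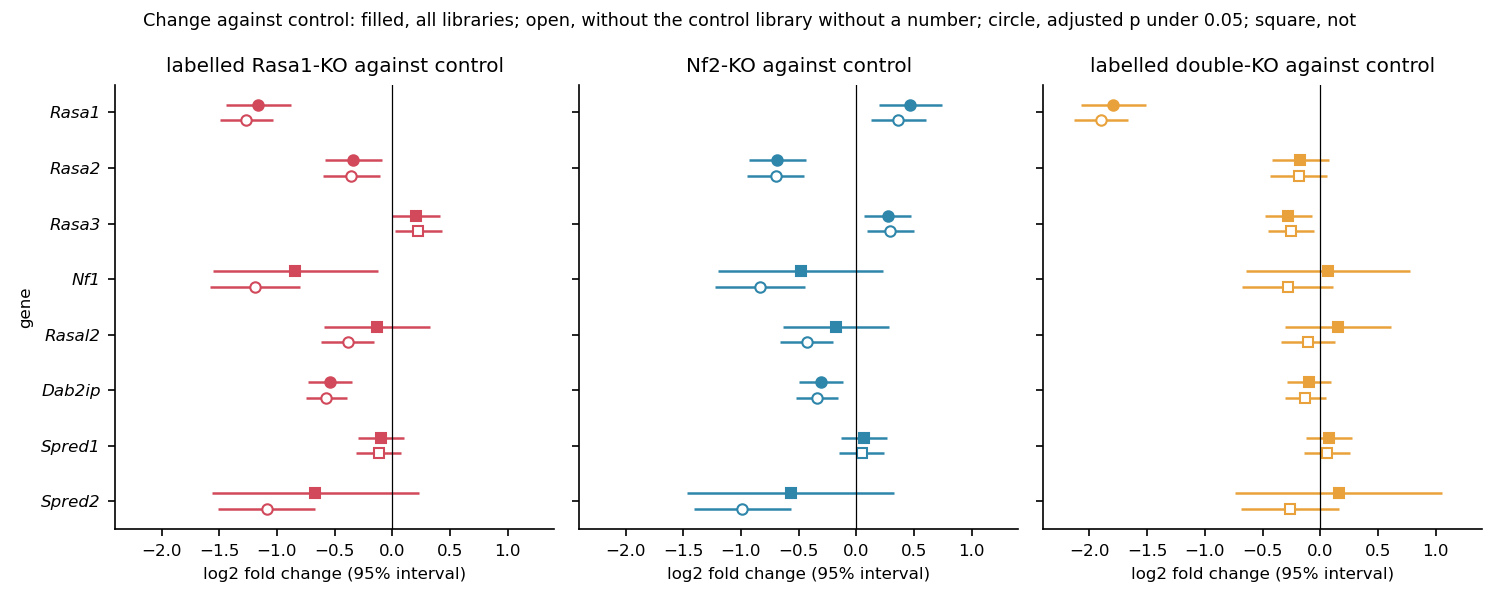
Log2 fold change of each member against control with its 95% interval (horizontal axes), for labelled *Rasa1*-KO, *Nf2*-KO and labelled double-KO. Filled symbols use all libraries, open symbols leave out the unnumbered control library, and circles have an adjusted p (edgeR) under 0.05. Only *Rasa1* and *Rasa3* lie above 0 with a circle, both in *Nf2*-KO, at 0.47 and 0.27.

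*Rasa2*, which like Rasa3 encodes a RasGAP of the GAP1 group, was lowest in *Nf2*-KO. Control had 70.1 CPM in the unnumbered library, 65.8 in control 1 and 79.9 in control 2. *Nf2*-KO had 43.5, 48.7 and 42.1 CPM, the labelled *Rasa1*-KO libraries 58.4, 56.9 and 55.2, and those labelled double-KO 55.6, 65.5 and 70.3. All *Nf2*-KO libraries lay below all others, and those labelled double-KO overlapped with control. The log2 fold change was -0.68 in *Nf2*-KO (SE 0.11, adjusted p = 0.00052, edgeR) and -0.34 in the labelled *Rasa1*-KO libraries (SE 0.11, adjusted p = 0.03, edgeR). The latter call was lost under 6 of 22 alternatives, with adjusted p up to 0.099. In those labelled double-KO it was -0.17 (95% interval -0.42 to 0.07, adjusted p = 0.41, edgeR).

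*Rasa3* was highest in *Nf2*-KO and lowest in the libraries labelled double-KO. Control had 115 CPM in the unnumbered library, 123 in control 1 and 97.8 in control 2. The labelled *Rasa1*-KO libraries had 129, 130 and 129 CPM, *Nf2*-KO had 134, 132 and 139, and those labelled double-KO had 90.4, 91.2 and 95.7. No group with a KO overlapped with control, although each lay close to its range. The log2 fold change was 0.27 in *Nf2*-KO (SE 0.09, adjusted p = 0.036, edgeR), a call lost under 15 of 22 alternatives, with adjusted p up to 0.19. It was 0.20 in the labelled *Rasa1*-KO libraries (95% interval 0.00 to 0.41, adjusted p = 0.099, edgeR) and -0.28 in those labelled double-KO (95% interval -0.48 to -0.07, adjusted p = 0.11, edgeR). The former was called higher under 2 of 22 alternatives, among them without control 1 (0.28, adjusted p = 0.041, edgeR), and the latter lower under 4. Between groups with a KO the difference was larger, at -0.48 for labelled double-KO against labelled *Rasa1*-KO (adjusted p = 0.0028, edgeR) and -0.55 for labelled double-KO against *Nf2*-KO (adjusted p = 0.00094, edgeR).

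*Dab2ip* encodes a RasGAP that also binds the kinase ASK1. It was at 73.8, 85.2 and 74.1 CPM in control (unnumbered, 1 and 2). The labelled *Rasa1*-KO libraries had 52.1, 55.1 and 53.5 CPM, *Nf2*-KO had 65.1, 62.7 and 60.5, and those labelled double-KO had 73.7, 74.1 and 70.2. The first 2 of these groups lay below all control libraries and below those labelled double-KO, which overlapped with control. The log2 fold change was -0.54 in the labelled *Rasa1*-KO libraries (SE 0.09, adjusted p = 0.00054, edgeR) and -0.31 in *Nf2*-KO (SE 0.09, adjusted p = 0.014, edgeR). In those labelled double-KO it was -0.10 (95% interval -0.29 to 0.09, adjusted p = 0.57, edgeR).

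*Nf1* was lower in all libraries with a KO than in control 1 and 2, but its comparison with control depended on 1 library. It was at 84.2 CPM in the unnumbered control library, 219 in control 1 and 259 in control 2. The labelled *Rasa1*-KO libraries had 107, 124 and 82.6 CPM, *Nf2*-KO had 163, 133 and 105, and those labelled double-KO had 181, 201 and 206. All 3 groups lay below control 1 and 2 and overlapped with control only through its unnumbered library. The log2 fold change was -0.84 in the labelled *Rasa1*-KO libraries (SE 0.33, adjusted p = 0.057, edgeR), -0.48 in *Nf2*-KO (SE 0.32, adjusted p = 0.25, edgeR) and 0.07 in those labelled double-KO (SE 0.32, adjusted p = 0.93, edgeR). With that library left out the values were -1.19 (adjusted p = 0.00011, edgeR), -0.83 (adjusted p = 0.0016, edgeR) and -0.28 (adjusted p = 0.25, edgeR).

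*Spred2* and *Rasal2* also had their lowest values in the unnumbered control library. *Spred2* was at 12.8 CPM in the unnumbered control library and at 44.0 and 63.0 in the other controls. It was at 23.6, 30.1 and 21.6 CPM in the labelled *Rasa1*-KO libraries, 31.7, 25.8 and 23.1 in *Nf2*-KO and 36.7, 51.0 and 45.7 in those labelled double-KO. None of its 3 comparisons with control was called (log2 fold changes of -0.67, -0.57 and 0.16, adjusted p in edgeR of 0.21, 0.28 and 0.87). Without the unnumbered control library, *Spred2* had log2 fold changes of -1.09 in the labelled *Rasa1*-KO libraries (adjusted p = 0.0004, edgeR) and -0.99 in *Nf2*-KO (adjusted p = 0.00077, edgeR). *Rasal2*, which encodes a RasGAP related to Dab2ip, was at 15.2, 29.0 and 30.5 CPM in control and between 19.3 and 28.9 CPM in all other libraries. Its log2 fold changes were between -0.18 and 0.15 and none was called. When that control was left out they were -0.39 (adjusted p = 0.0072, edgeR) in the labelled *Rasa1*-KO libraries, -0.43 (adjusted p = 0.0037, edgeR) in *Nf2*-KO and -0.11 (adjusted p = 0.47, edgeR) in those labelled double-KO.

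Over the 12 libraries, the log2 CPM of *Nf1*, *Rasal2* and *Spred2* had Pearson correlations of 0.90 (*Nf1* and *Rasal2*), 0.94 (*Nf1* and *Spred2*) and 0.96 (*Rasal2* and *Spred2*). Over the 11 libraries without the unnumbered control they were 0.93, 0.96 and 0.93. These are descriptions, since libraries of a group share their genotype. Without that library other pairs were also close, at 0.89 for *Nf1* and *Dab2ip*, 0.82 for *Rasa2* and *Rasal2* and 0.82 for *Dab2ip* and *Spred2*, where over the 12 libraries they had 0.68, 0.34 and 0.47. *Spred1*, the other adaptor that binds neurofibromin, had 0.52 with *Nf1* over the 12 libraries.

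*Spred1*, the second most abundant member, was the steadiest. It was between 148 and 165 CPM in control, 137 and 152 in the labelled *Rasa1*-KO libraries, 155 and 172 in *Nf2*-KO and 151 and 169 in those labelled double-KO. Each group overlapped with control. The log2 fold changes were -0.10 (95% interval -0.30 to 0.10), 0.06 (-0.14 to 0.26) and 0.08 (-0.12 to 0.28), with adjusted p in edgeR of 0.40, 0.60 and 0.69.

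The *Nf2*-KO libraries had 2 members called higher, *Rasa1* and *Rasa3*, and 2 lower, *Rasa2* and *Dab2ip*, where 20.6% of all genes were called higher and 22.2% lower. The median log2 fold change was -0.24 for the members and -0.07 for all genes. Without the unnumbered control library 2 were called higher and 5 lower in *Nf2*-KO (30.6% and 31.0% of all genes), and 0 higher and 6 lower in the labelled *Rasa1*-KO libraries (30.3% and 30.2% of all genes). The members added in both were *Nf1*, *Rasal2* and *Spred2*.

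The groups with a KO were then compared with each other, which leaves out the control libraries except for the shared estimate of the spread. Labelled double-KO against labelled *Rasa1*-KO had 1 member called higher, *Dab2ip* (0.44, adjusted p = 0.0031, edgeR), and 2 lower, *Rasa1* and *Rasa3*, where 16.3% of all genes were higher and 14.0% lower. All 3 libraries labelled double-KO lay above all those labelled *Rasa1*-KO for *Nf1*, *Rasal2* and *Spred2*, with log2 differences of 0.91, 0.28 and 0.83 (adjusted p in edgeR of 0.055, 0.34 and 0.15). The share of all genes whose libraries separate in this way was not computed for any comparison, so such separation is only a description. When the unnumbered control library was left out of the fit, 4 members were called higher and 2 lower (24.1% and 22.3% of all genes), and the 3 genes had adjusted p of 0.00068, 0.029 and 0.0021. Labelled double-KO against *Nf2*-KO had 1 member higher, *Rasa2* (0.51, adjusted p = 0.0048, edgeR), and 2 lower, *Rasa1* (-2.26, adjusted p = 3.7e-07, edgeR) and *Rasa3*, where 16.9% of all genes were higher and 15.3% lower. Without the unnumbered control library 5 were higher and 2 lower (24.2% and 23.3% of all genes). Labelled *Rasa1*-KO against *Nf2*-KO had 0 members higher and 1 lower, *Rasa1* (-1.63, adjusted p = 0.00015, edgeR), where 1.92% of all genes were higher and 1.74% lower. With the labels exchanged, this is the comparison of double-KO with *Nf2*-KO.

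The summed level of the 6 RasGAP members was compared next, since members of the family act on the same substrate. The FPKM of the 6 RasGAP genes summed to 67.8, 89.5 and 91.9 in control (unnumbered, 1 and 2). The sums were 60.3, 61.9 and 57.3 in the labelled *Rasa1*-KO libraries, 79.8, 80.8 and 73.4 in *Nf2*-KO, and 57.0, 61.2 and 66.7 in those labelled double-KO. Both groups with a low *Rasa1* lay below all control libraries in FPKM. In TPM the sums were 88.1, 143 and 171 in control, between 68.8 and 78.9 in the labelled *Rasa1*-KO libraries and between 69.5 and 103 in those labelled double-KO, which then overlapped with control through its unnumbered library. Without *Rasa1*, the other 5 summed to 56.8, 75.2 and 76.3 FPKM in control, to between 52.0 and 56.5 in the labelled *Rasa1*-KO libraries, to between 56.0 and 62.0 in *Nf2*-KO and to between 53.9 and 62.3 in those labelled double-KO. In these FPKM, the 5 relatives were lower in sum in every library labelled *Rasa1*-KO than in control 1 and 2. Against the unnumbered control library the margin was narrow, at up to 56.5 against 56.8 FPKM. The same order was found in TPM (between 62.4 and 72.0, against 73.9, 120 and 142 in control). None of these sums carries the TMM scaling used in the tests, and the order under that scaling was not tested. They also leave out RasGAP genes that are not members, among them *Rasal1*. It was between 19.1 and 21.8 FPKM in control and between 0.860 and 1.12 in the labelled *Rasa1*-KO libraries. In *Nf2*-KO it was between 0.370 and 0.466 FPKM, and in those labelled double-KO between 7.10 and 12.4. The order of the groups with such genes in the sum was not tested. *Rasa1* made up between 16.0% and 17.0% of the sum in control, 8.73% to 9.94% in the labelled *Rasa1*-KO libraries, 22.3% to 23.8% in *Nf2*-KO and 5.43% to 6.52% in those labelled double-KO. *Rasa3* was the largest share of the 6 in every library. It made up 26.0% to 37.4% in control and 45.2% to 47.5% in the labelled *Rasa1*-KO libraries. In *Nf2*-KO it made up 37.3% to 41.2%, and in those labelled double-KO 31.4% to 33.5%. These are transcript levels, and the activity of the proteins was not measured here.

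**Figure D3:**
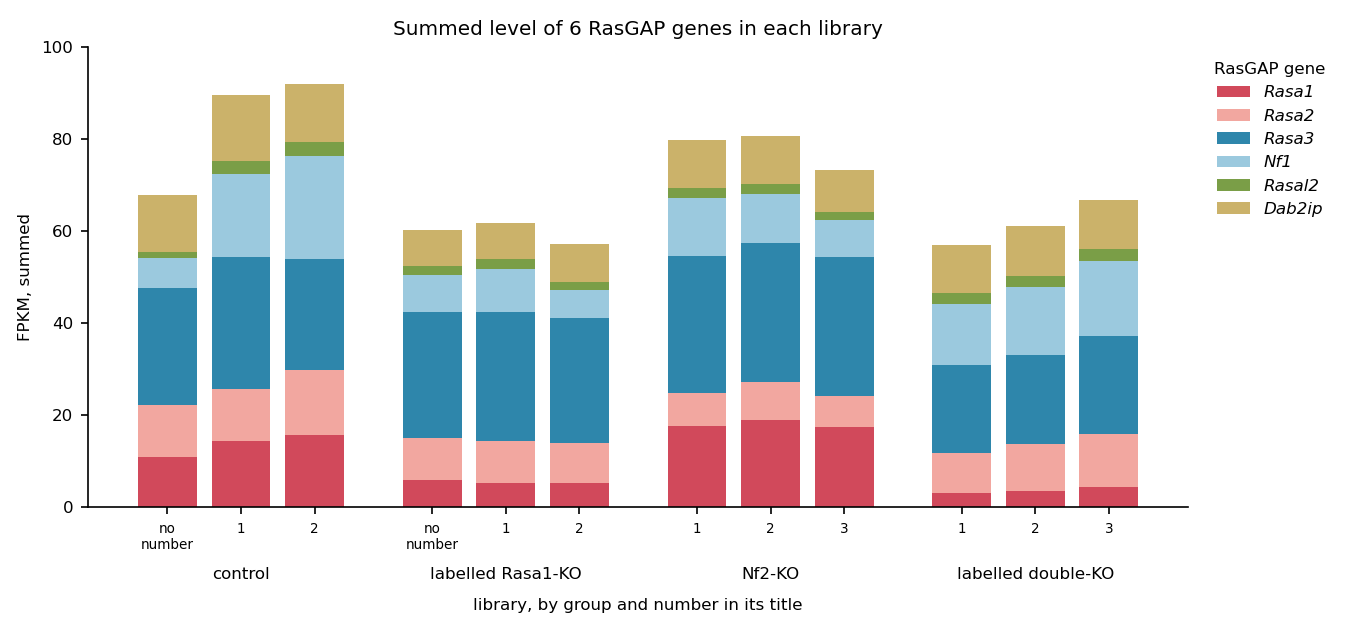
FPKM of the 6 RasGAP genes, stacked (vertical axis, from 0), in each of the 12 libraries (horizontal axis, by group and by the number in the title). Control 1 and 2 reach 89.5 and 91.9, the unnumbered control library 67.8, and the groups labelled *Rasa1*-KO and double-KO lie between 57.0 and 66.7.

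Whether the KOs add up was tested as the departure from additivity, the log2 difference between double-KO and control minus those of both single KOs. With the labels as given, 3 members departed upwards and 2 downwards, where 27.4% of all genes did so upwards and 24.9% downwards. The departures were 1.39 for *Nf1* (adjusted p = 0.024, edgeR), 0.85 for *Rasa2* (adjusted p = 0.00093, edgeR), 0.75 for *Dab2ip* (adjusted p = 0.00037, edgeR), -0.75 for *Rasa3* (adjusted p = 0.00061, edgeR) and -1.10 for *Rasa1* (adjusted p = 0.00033, edgeR). Without the unnumbered control library 5 departed upwards and 2 downwards (32.9% and 32.5% of all genes). With both labels exchanged, 0 members departed in either direction, where 2.69% of all genes did so upwards and 3.72% downwards. Of the 8 members, only *Rasa2* then had an unadjusted p under 0.05 (0.52, adjusted p = 0.083, edgeR), and *Rasa1* departed by 0.17 (adjusted p = 0.68, edgeR). Whether the members' changes add up thus turns on which labels are right, and *Nf2* went against the labels as given. Its mean was at 20.4% of control in the labelled *Rasa1*-KO libraries and at 101% in those labelled double-KO.

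**Figure D4:**
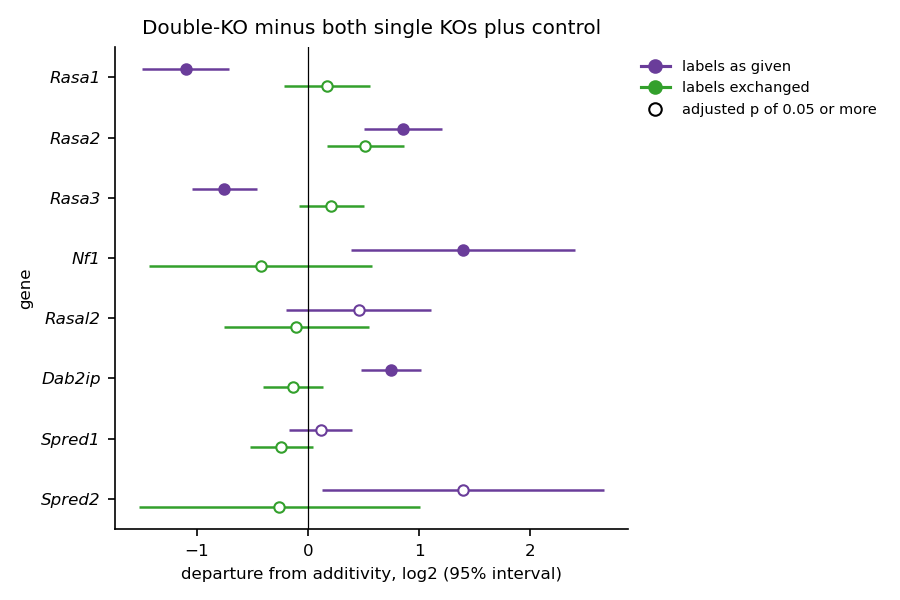
Departure from additivity of the 8 members on the log2 scale, with 95% intervals (horizontal axis), with the labels as given and with the labels *Rasa1*-KO and double-KO exchanged. Filled points have an adjusted p (edgeR) under 0.05. The 5 filled points, from -1.10 for *Rasa1* to 1.39 for *Nf1*, all belong to the labels as given.

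Other genes around Ras were taken from 6 lists with 42 genes, of which 38 were tested. In the labelled *Rasa1*-KO libraries 8 were called higher and 6 lower (background shares as given for that comparison), in *Nf2*-KO 10 higher and 8 lower, and in those labelled double-KO 2 higher and 1 lower. The medians of the 38 log2 fold changes were -0.12, -0.19 and 0.02, beside -0.08, -0.07 and -0.04 over all genes. With the unnumbered control library left out, 20 and 27 of the 38 were called in the labelled *Rasa1*-KO libraries and in *Nf2*-KO. Of all genes, 30.3% and 30.6% were then called higher and 30.2% and 31.0% lower. In the libraries labelled double-KO 8 of the 38 were called. The share of all genes was not computed there, so this count is not read as a result about the lists.

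Of the 6 other RasGAP and GAP-related genes tested, *Rasal1* changed far more than any member. *Rasal1*, a calcium-responsive RasGAP of the GAP1 group, was between 69.9 and 81.4 CPM in control. It was between 3.22 and 4.19 CPM in the labelled *Rasa1*-KO libraries, between 1.51 and 1.78 in *Nf2*-KO and between 26.3 and 47.0 in those labelled double-KO, so that no groups overlapped. The log2 fold changes were -4.29 (SE 0.22, adjusted p = 1.5e-07, edgeR), -5.52 (SE 0.24, adjusted p = 2.5e-08, edgeR) and -1.11 (SE 0.19, adjusted p = 0.0059, edgeR). In control it had a mean of 20.7 ± 1.4 FPKM (SD, n = 3), beside 26.0 ± 2.44 for *Rasa3* and 15.6 ± 8.22 for *Nf1*. Of the scaffold proteins with a GAP-related domain, *Iqgap2* fell in *Nf2*-KO (-0.67, adjusted p = 8.7e-05, edgeR) and *Iqgap3* rose in *Nf2*-KO and in the libraries labelled double-KO (0.54 in both, adjusted p in edgeR of 0.0046 and 0.025). *Iqgap1* and *Rasa4* passed the test in none of these comparisons.

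Of the 6 Ras GTPases, *Rras2*, which encodes the Ras relative TC21, rose by 1.24 in the labelled *Rasa1*-KO libraries and by 1.10 in *Nf2*-KO (adjusted p in edgeR of 0.00016 and 0.0003). *Nras* rose by 0.34 in *Nf2*-KO (adjusted p = 0.019, edgeR), and *Hras*, *Mras* and *Rras* were not called. Of the 6 exchange factors tested, only *Rasgrf2* was called, with log2 fold changes of -1.03 in the labelled *Rasa1*-KO libraries and -1.21 in *Nf2*-KO (adjusted p in edgeR of 0.0044 and 0.0015). *Sos1* and *Sos2*, the exchange factors downstream of many growth factor receptors and named here for that role, had log2 fold changes between -0.70 and 0.05 that were not called. None of the genes in these lists was called in the libraries labelled double-KO.

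The Sprouty genes encode feedback inhibitors of receptor signalling and are related to the Spreds. *Spry2* rose by 0.59 and 0.47, and *Spry1* by 0.45 and 0.33, in the labelled *Rasa1*-KO libraries and in *Nf2*-KO (adjusted p in edgeR of 0.00066 and 0.0026, and of 0.0024 and 0.014). *Spred3*, the third Spred gene, fell by 0.62 in the labelled *Rasa1*-KO libraries (adjusted p = 0.033, edgeR) and was at -0.21 in *Nf2*-KO (adjusted p = 0.43, edgeR). None of the 3 Spred genes was called higher in any comparison with control. In the libraries labelled double-KO none of the 4 genes tested of this list was called.

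Of 6 genes for proteins that bind Rasa1, 3 were higher and 1 lower in both the labelled *Rasa1*-KO libraries and *Nf2*-KO, and 0 were called in those labelled double-KO. Of all genes, 19.7% and 20.6% were higher and 22.2% lower in the first and second of these comparisons. *Dok1*, an adaptor that recruits Rasa1, rose by 1.53 and 0.92 (adjusted p in edgeR of 2.8e-05 and 0.00074), whereas its relative *Dok2*, at most 1.77 CPM in any library, fell by 1.19 and 2.31 (adjusted p in edgeR of 0.002 and 2.0e-05). *Dlc1*, a RhoGAP, rose by 1.93 and 2.86 (adjusted p in edgeR of 0.00012 and 5.7e-06), and *G3bp1*, a stress granule protein, by 0.41 and 0.39 (adjusted p in edgeR of 0.036 and 0.042). Of the 10 genes of the Raf, MEK and ERK list, *Map2k1*, which encodes MEK1, rose in all 3 comparisons, by 1.24, 1.29 and 0.64 (adjusted p in edgeR of 3.6e-05, 1.8e-05 and 0.017). Its levels were between 90.4 and 132 CPM in control, 242 and 251 in the labelled *Rasa1*-KO libraries, 246 and 267 in *Nf2*-KO and 153 and 171 in those labelled double-KO. The scaffolds *Ksr1* and *Shoc2* fell in the labelled *Rasa1*-KO libraries (-0.47 and -0.35, adjusted p in edgeR of 0.012 and 0.045) and in *Nf2*-KO (-0.52 and -0.44, adjusted p in edgeR of 0.0064 and 0.016). *Mapk3*, which encodes ERK1, fell by 0.35 in *Nf2*-KO (adjusted p = 0.017, edgeR). With these genes, the list had 2 called higher and 2 lower in the labelled *Rasa1*-KO libraries and 2 higher and 4 lower in *Nf2*-KO.

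**Figure D5:**
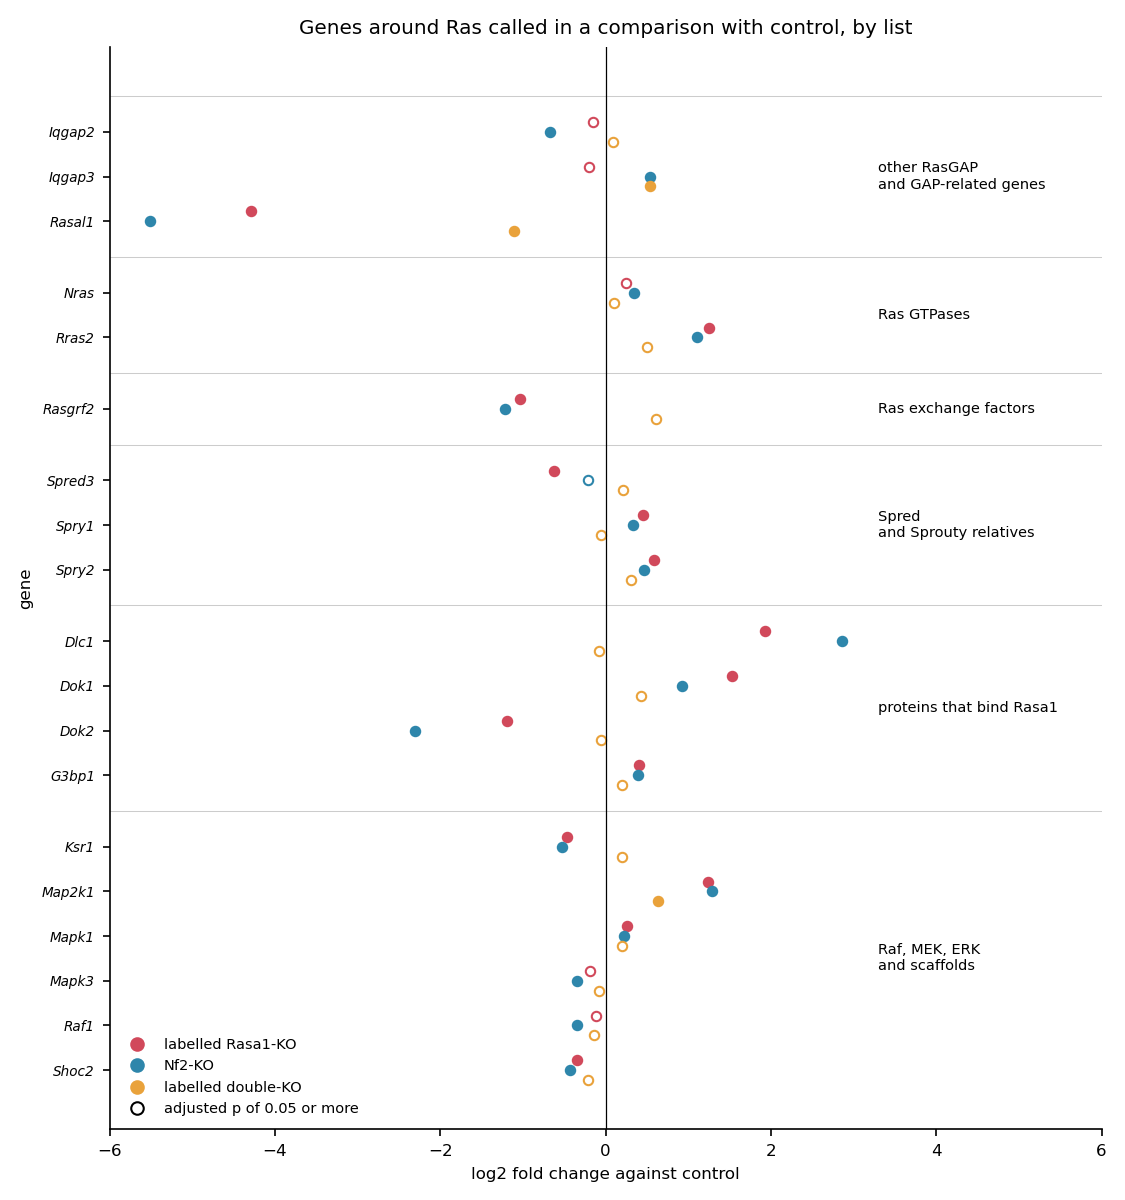
Log2 fold change against control (horizontal axis) of the 19 genes around Ras, of 38 tested, that were called in at least 1 comparison with control (vertical axis, grouped by list), in the labelled *Rasa1*-KO libraries, *Nf2*-KO and labelled double-KO. Filled points have an adjusted p (edgeR) under 0.05. *Rasal1* lies at -4.29, -5.52 and -1.11, and *Map2k1* is the gene above 0 in all 3 with filled points.

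The genes whose levels followed those of the called members most closely were named by the Pearson correlation of log2 CPM over the 12 libraries, among tested genes with a mean of at least 1 CPM. For *Rasa1* they were *Ankrd6* (0.97), *Pde4b* (0.95) and *Cdan1* (0.94). For *Rasa2* they were *Slc44a1* (0.97), *Zfp2* (0.96) and *Fhl1* (0.96). For *Rasa3* they were *Rgs3* (0.96), *Ssbp2* (0.95) and *Soat2* (0.95), and for *Dab2ip* they were *Dido1* (0.98), *Acin1* (0.97) and *Spaca6* (0.97). The points share their genotypes and control libraries, so these values are descriptions over 12 libraries.

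Markers of other cell types were measured beside these results. Of 5 fibroblast markers 4 were in the tables, and they summed to between 15.6 and 45.7 FPKM in control, 30.1 and 37.2 in the labelled *Rasa1*-KO libraries, 101 and 115 in *Nf2*-KO and 7.41 and 8.42 in those labelled double-KO. *Col1a2* was higher by 7.27 in the labelled *Rasa1*-KO libraries and by 9.47 in *Nf2*-KO on the log2 scale (adjusted p in edgeR of 2.7e-06 and 3.8e-07). *Pdgfra* was higher by 3.28 and 4.45 there (adjusted p in edgeR of 0.0045 and 0.00077), *Dcn* was lower in all 3 comparisons, and *Thy1* was not in the tables. Of 5 immune cell markers 2 were in the tables, with sums between 4.09 and 6.37 FPKM in control, 14.0 and 16.2 in the labelled *Rasa1*-KO libraries, 10.6 and 11.2 in *Nf2*-KO and 4.98 and 11.97 in those labelled double-KO. *Cd68* was higher by 1.58 and 1.02 in the labelled *Rasa1*-KO libraries and in *Nf2*-KO (adjusted p in edgeR of 0.00072 and 0.0091). The other, *Ptprc*, was at -0.87 and -0.81 there and was not called (adjusted p in edgeR of 0.18 and 0.20). *Ptprc* was at most 0.097 FPKM in any library, so these sums are almost wholly *Cd68*. Of 4 endothelial markers 2 were in the tables, with sums between 0.123 and 0.390 FPKM. They moved in opposite directions in the labelled *Rasa1*-KO libraries and in *Nf2*-KO. *Kdr* was higher by 1.35 and 1.28 (adjusted p in edgeR of 0.022 and 0.027). *Pecam1* was lower, at -1.46 and -1.62 (adjusted p in edgeR of 0.0081 and 0.0042). *Cd3e*, *Adgre1*, *Cdh5* and *Tek* were not in the tables, which hold no gene with a count of 0 in any library. The part of these markers in the members' changes was not tested.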

How the data were processed

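Total RNA was depleted of rRNA and sequenced in paired ends on a NovaSeq instrument. The reads were trimmed by the authors (Trimmomatic 0.38) and mapped with HISAT2 2.1.0 on mm10. They used SAMtools 1.9, assembled with StringTie 2.1.3b against the NCBI RefSeq annotation and deposited raw counts, FPKM and TPM per gene for each library. HISAT2 and the versions are as named in the submitters' processing notes. Genes with a count of 0 in any library are absent from the deposited tables. Whether counting used the strand was not given in the sources used here.

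The counts were tested with edgeR 4.0.16 (R 4.3.3) by the quasi-likelihood test, with TMM scaling and filterByExpr, in 1 fit over 12 libraries, and p-values were adjusted by the Benjamini-Hochberg method over 18053 of 18926 genes. A gene was called at an adjusted p under 0.05. CPM allow for TMM, and the deposited FPKM and TPM served to compare genes. Groups came from the genotype labels. The libraries held 43818139 to 96674463 counts. Replicates differed by more than sampling noise (median chi-square per gene of 2.40 to 44.4, against 0.455 from sampling alone). The alternatives were DESeq2 1.42.0, RLE scaling, no filter on low counts, fits of only the groups compared, limma 3.58.1 on log2(FPKM + 1) and log2(FPKM + 0.1), a rule of at least 3-fold with an unadjusted p under 0.05, replicate blocks, each library left out, and the labels exchanged. The fit without both libraries whose tables carry no number was chosen after seeing the data.

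The members and lists were chosen with earlier results of these data known. Named were the members, *Nf2*, of each list around Ras at most 4 genes called against control by smallest adjusted p, and the 3 genes that followed each called member most closely. Some genes of the lists are counted but not reported here by name.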

Additional observations from a re-analysis of the deposited data

Results flagged for a closer look

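For 5 members, the difference between the libraries labelled double-KO and control differed from the sum of those of both groups labelled as single KOs, by the edgeR test of that departure. The departures on the log2 scale were -1.10 for *Rasa1*, 0.85 for *Rasa2*, -0.75 for *Rasa3*, 1.39 for *Nf1* and 0.75 for *Dab2ip*. With the labels *Rasa1*-KO and double-KO exchanged, the same departures were 0.17, 0.52, 0.21, -0.42 and -0.13, and none was called (edgeR adjusted p between 0.083 and 0.69). The level of *Nf2* went against the labels as given. The departure of *Nf1* lost its call under 6 of 21 alternatives. The departures of *Nf1* and *Dab2ip* without the unnumbered control library were 1.74 and 0.78 (edgeR adjusted p of 4.2e-05 and 4.7e-05).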

How the results depend on the processing

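Of 1224 values of the members under alternatives, 1091 kept direction and side of the threshold, 46 lost a call, 63 gained one and 24 changed sign. Of those that changed sign, 0 were called. The fall of *Rasa1* in both groups with its KO kept its call under all alternatives by an adjusted p alone.

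Members called were 3, 4 and 1 (labelled *Rasa1*-KO, *Nf2*-KO and labelled double-KO against control), 3, 1 and 3 (labelled double-KO against labelled *Rasa1*-KO, labelled *Rasa1*-KO against *Nf2*-KO and labelled double-KO against *Nf2*-KO) and 5 for the departure. Genes around Ras called were 14, 18 and 3 against control. The rule of at least 3-fold left 0, 0 and, between KO groups, 0 and 1 (labelled double-KO against *Nf2*-KO), 0 departures, and 2, 4 and 0 genes around Ras. DESeq2 called 2 members and 6 genes around Ras in the libraries labelled double-KO, and 2 members between labelled *Rasa1*-KO and *Nf2*-KO. Both FPKM scales gave 2 members in those labelled double-KO. With labels exchanged the members called against control were 1 (*Rasa1*-KO) and 3 (double-KO), those between KO groups 3 and 1 (*Rasa1*-KO and double-KO against *Nf2*-KO), departures 0, and genes around Ras 3 and 14. Fits of only the groups compared called 1 member in *Nf2*-KO, and 6, 3 and 7 between KO groups, with 11 and 0 genes around Ras in *Nf2*-KO and labelled double-KO. Without both libraries whose tables carry no number, 7 members were called in *Nf2*-KO, 7 in labelled *Rasa1*-KO and 7, 3 and 7 between KO groups, with 24, 31 and 8 genes around Ras. Shares of all genes were not computed for that fit or for most alternatives, so these counts are not results about the members. Leaving out the unnumbered control library alone raised the shares in labelled *Rasa1*-KO against control from 19.7% higher and 22.2% lower to 30.3% and 30.2%. Leaving out 1 library gave 2 to 6, 2 to 7 and 1 to 2 members against control, 3 to 6, 1 to 2 and 3 to 7 between KO groups, 4 to 7 departures, and 10 to 20, 12 to 27 and 1 to 8 genes around Ras. The highest counts came without the unnumbered control library, except that 2 members in labelled double-KO came without control 2. The 2 members in *Nf2*-KO came without its library 3, and the 1 gene around Ras without library 2 or 3 labelled double-KO.

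Of 13 pairs of libraries from different groups with the same number, 4 deviated together (r over 0.1), both by titles and by table names. The highest r were 0.40 by titles and 0.44 by table names. Libraries without a number were not paired with each other. Whether the numbers mark shared batches was thus not tested in full. A replicate block by title numbers called 2 members in *Nf2*-KO, and one by table names 5 (labelled double-KO against labelled *Rasa1*-KO), 2 (labelled *Rasa1*-KO against *Nf2*-KO) and 6 genes around Ras in labelled double-KO.

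Values that changed sign were as follows. In labelled double-KO against control, *Nf1*, *Rasal2* and *Spred2* were -0.23, -0.085 and -0.14 without both libraries whose tables carry no number, and between -0.28 and 0.37, -0.11 and 0.32, and -0.26 and 0.65 with 1 library left out (lowest without the unnumbered control), and *Spred1* was -0.036 and -0.038 on log2(FPKM + 1) and log2(FPKM + 0.1). *Rasal2* in labelled *Rasa1*-KO against control was between -0.39 and 0.028 with 1 library left out. In labelled *Rasa1*-KO against *Nf2*-KO, *Rasal2* was -0.0088 and -0.011 on these scales, and between -0.042 and 0.12 with 1 library left out. *Spred2* there was 0.0061 and 0.0093 on these scales, 0.25 under the block by titles, and between -0.25 and 0.037 with 1 library left out. In labelled double-KO against *Nf2*-KO, *Spred1* was -0.041 and -0.042 on them, -0.022 under the block by table names, -0.015 without both libraries whose tables carry no number, and between -0.015 and 0.062 with 1 library left out. The cause of these changes was not tested. No fit of only the groups compared was made for the departure, which needs all groups. No count of a member was under 1202, and with 3 libraries a group the intervals of *Nf1*, *Rasal2* and *Spred2* against control were the widest of the members with the unnumbered control library in the fit.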
